A study of Drosophila melanogaster with 6 samples.

Results

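The genes that make, recycle, package and break down acetylcholine were followed in whole heads of Drosophila melanogaster at 25 days (aged) and 2 days (young). The members are all probe sets that the array's probe table assigns to 1 of 4 genes: ChAT (choline acetyltransferase), VAChT (the vesicular acetylcholine transporter), ChT (the choline transporter) and Ace (acetylcholinesterase). The rule used names and no measured value, and it found 4 probe sets, 1 per gene, among the 18769 non-control probe sets of the array, which cover 11982 named genes. The 4 genes were chosen with earlier results of these data known. Every fly, aged and young, was of the genotype P{GawB}elavC155, a transposon that sits in elav, a gene of neurons, and makes the yeast activator GAL4 there, in a background labelled W*, with no other transgene in the labels. Flies were kept at 25 °C with 12 h of light and 12 h of dark. There were 3 Affymetrix arrays of aged heads and 3 of young heads, and the values are the authors' RMA levels on the log2 scale, on which a step of 1 is a doubling. The labels give neither the sex of the flies nor whether replicates were separate batches of animals, so the p-values cover the scatter among these arrays alone, which may be technical.

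Acetylcholine is the main fast excitatory transmitter of the insect brain. ChAT joins choline to an acetyl group carried by coenzyme A, VAChT loads the product into synaptic vesicles, and after release Ace cleaves it in the synaptic cleft, so that ChT can carry the choline back into the terminal. In Drosophila, VAChT lies inside an intron of ChAT and the transcripts of both start from a shared exon, an arrangement known as the cholinergic locus.

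In aged heads the messages for making, packaging and recycling the transmitter were lower, and the message for breaking it down was higher. VAChT was 41.1% lower in aged than in young heads, ChT 38.1% lower and ChAT 31.6% lower, while Ace was 28.3% higher. All 4 passed limma's test after Benjamini-Hochberg adjustment over all probe sets (adjusted p under 0.05), where 21.7% of probe sets passed in either direction, 13% higher and 8.7% lower. With each array centred on its median instead, the split of called probe sets over the whole array was 1859 higher and 1951 lower, against 2438 higher and 1633 lower as deposited, and the direction of the 4 genes was the same. Whole heads were measured, so fewer cells of a type and less RNA per cell cannot be told apart.

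ChAT (probe set 1640284_at), the enzyme of synthesis, had log2 levels of 9.84, 9.81 and 9.70 on the aged arrays, against 10.25, 10.43 and 10.30 on the young arrays. The ages did not overlap, as at 40.8% of all probe sets, and 0.42 on the log2 scale separated the highest aged array from the lowest young one. Its mean level was 9.78 ± 0.07 in aged heads and 10.33 ± 0.09 in young heads (SD, n = 3 arrays each). ChAT fell by 0.55 ± 0.08 in aged heads (difference ± SE, 95% confidence interval of the signed difference -0.73 to -0.37, limma adjusted p = 0.00329).

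VAChT (probe set 1636264_at), the vesicle loader, had levels of 9.38, 9.26 and 9.27 on the aged arrays, against 10.01, 10.18 and 10.02 on the young arrays. It showed the widest gap between the ages of the 4 genes, 0.63. Young replicate 2 was the highest array for both VAChT and ChAT. The means were 9.31 ± 0.06 in aged heads and 10.07 ± 0.09 in young heads (SD, n = 3 arrays each), and the fall was 1.70-fold (-0.76 ± 0.08, 95% interval -0.94 to -0.59, limma adjusted p = 9.57e-04). Of all probe sets, 1.62% had a lower signed difference than VAChT.

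ChT (probe set 1624129_s_at), which returns choline to the terminal, had levels of 9.49, 9.45 and 9.30 on the aged arrays, against 10.02, 10.13 and 10.15 on the young arrays. Its ages did not overlap and lay 0.53 apart. The means were 9.41 ± 0.10 in aged heads and 10.10 ± 0.07 in young heads (SD, n = 3 arrays each), a 1.61-fold fall (-0.69 ± 0.08, 95% interval -0.88 to -0.51, limma adjusted p = 0.00158). The ending _s_at marks a probe set that can be shared between transcripts, and in RefSeq the gene CG46318 lies inside ChT with the same start, so a part of CG46318 in this signal cannot be told apart.

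Ace (probe set 1624577_at), the enzyme of breakdown, had levels of 9.93, 9.79 and 9.77 on the aged arrays, against 9.55, 9.46 and 9.40 on the young arrays. All aged arrays lay above all young arrays, by 0.21 at the nearest. The means were 9.83 ± 0.09 in aged heads and 9.47 ± 0.08 in young heads (SD, n = 3 arrays each), a rise of 0.36 ± 0.08 (95% interval 0.18 to 0.54, limma adjusted p = 0.0162). Of all probe sets, 10.3% had a higher signed difference. The call was lost without aged replicate 1 (0.31, adjusted p = 0.0672) and without young replicate 3 (0.32, adjusted p = 0.0562), and also with young replicate 2 and with it aged replicate 3 left out (0.39, adjusted p = 0.0612), a choice made after the data were seen.

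**Figure D1:**
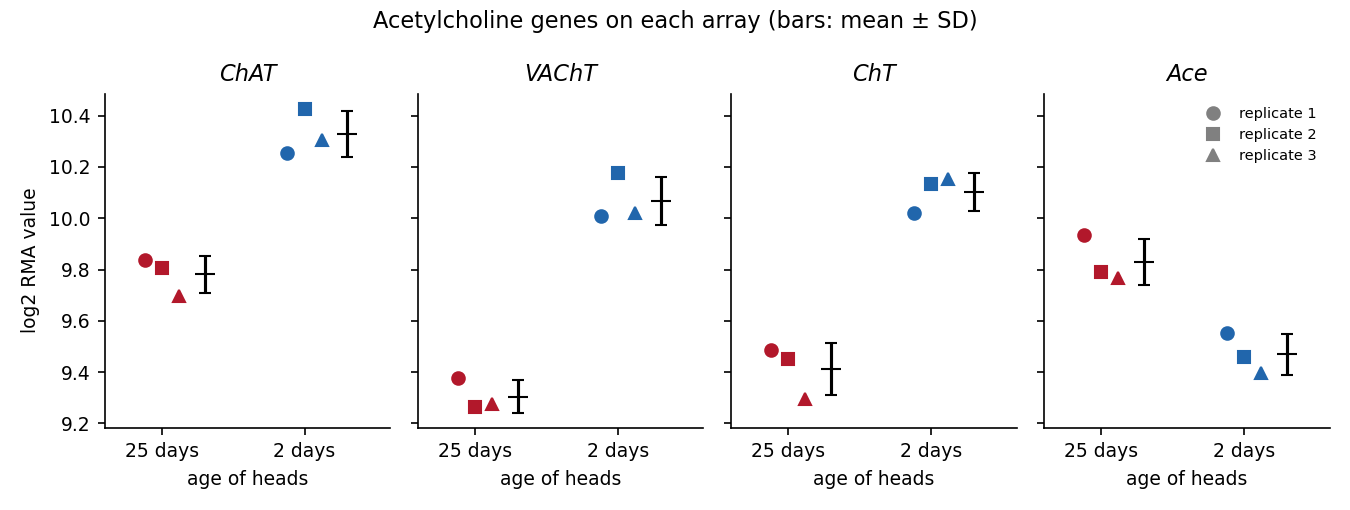
Log2 RMA value (y axis) of ChAT, VAChT, ChT and Ace on each array at 25 days (red) and 2 days (blue), with the mean ± SD of 3 arrays as black bars and the symbol showing the replicate number. For the first 3 genes all aged arrays lie below all young arrays, and for Ace all lie above them.

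All 4 levels lay above 7.81, the upper quartile of the mean levels of all probe sets, so none of the differences starts or ends near the dim end of the scale, where RMA compresses differences. The absolute differences of VAChT, ChT and ChAT exceeded 0.43, the median absolute difference of all called probe sets, and that of Ace was below it. Among the 1633 probe sets called lower, 219 lay at or below VAChT, 273 at or below ChT and 477 at or below ChAT. Among the 2438 called higher, 1683 lay at or above Ace.

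**Figure D2:**
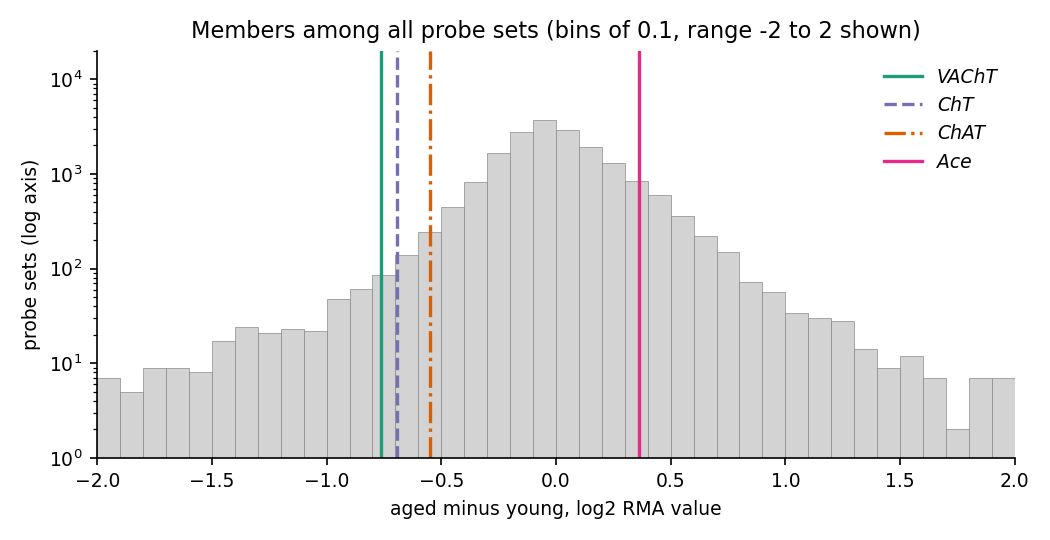
Number of probe sets (y axis, log scale) by signed difference between aged and young heads (x axis, log2 RMA, bins of 0.1, shown from -2 to 2), with the 4 genes as vertical lines. VAChT, ChT and ChAT stand in the lower tail, where 1.62%, 1.99% and 3.3% of probe sets lie further down, and Ace stands on the upper shoulder.

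Because VAChT and ChAT share a locus, they were set against each other within each array, which removes any scaling common to an array. VAChT minus ChAT was -0.46, -0.54 and -0.42 on the aged arrays, against -0.24, -0.25 and -0.28 on the young arrays. The ages did not overlap, and the aged mean lay 0.22 below the young mean (two-sided exact permutation p = 0.10, the smallest that 3 arrays against 3 allow, and 0.12 after Benjamini-Hochberg adjustment over 6 pairs). VAChT was thus lower relative to ChAT on every aged array than on any young array. Of single probe sets 40.8% did not overlap, and the share among pairs of probe sets was not computed. Leaving out each array in turn gave -0.24 to -0.18.

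ChT minus ChAT also did not overlap between the ages, at -0.35, -0.35 and -0.40 on the aged arrays, against -0.23, -0.29 and -0.15 on the young arrays (difference -0.14, exact permutation p = 0.10, adjusted 0.12). ChT minus VAChT did overlap, with means of 0.11 ± 0.08 in aged heads and 0.03 ± 0.09 in young heads (SD, n = 3 arrays each, exact permutation p = 0.40, adjusted 0.40). The pairs with Ace had the widest differences of the 6. ChAT minus Ace averaged -0.05 ± 0.06 in aged heads and 0.86 ± 0.14 in young heads, a difference of -0.91 (SD, n = 3 arrays each, exact permutation p = 0.10, adjusted 0.12). The corresponding differences were -1.12 for VAChT minus Ace and -1.05 for ChT minus Ace, each with the same exact permutation p of 0.10. On all aged arrays ChAT, VAChT and ChT were lower, and Ace higher, than on any young array. The pairs with Ace therefore could not overlap, and their p-values follow from the single genes and add no separate test. The pairs of ChT with ChAT and with VAChT were added after the values were seen.

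General neuronal genes were read next, although their levels in whole heads do not separate cell number from RNA per cell. Of 9 listed, 8 were measured through their own probe set, of which 0 were called higher, 5 lower and 3 did not pass (limma; at an unadjusted p under 0.05, 1 was higher and 6 lower). Among genes each read through 1 probe set, 26.5% were called, 15.8% higher and 10.7% lower. The median difference of the 8 was -0.32, against -0.0031 over all genes. The RNA-binding protein gene elav, the site of the insertion that both ages carry, differed by -0.09 ± 0.07 (adjusted p = 0.391), the synaptobrevin gene nSyb by 0.30 ± 0.11 (adjusted p = 0.0984), and Snap25, of the vesicle fusion machinery, by -0.32 ± 0.09 (adjusted p = 0.0362). The brightest probe set of brp stood at -0.44 and passed, and the others, at 0.46, 0.11 and 0.05, did not. The mean log2 level of the 8 markers was 9.37 to 9.57 on the aged arrays, against 9.69 to 9.78 on the young arrays, and 0 of them had a mean below 4.92, the median of all probe sets.

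Scaled to these markers, the 4 genes kept the direction of their differences, an outcome that was fixed in advance for Ace. Relative to the marker mean of the same array, VAChT stood at -0.16, -0.31 and -0.09 on the aged arrays, against 0.23, 0.49 and 0.32 on the young arrays, a difference of -0.53. The corresponding difference was -0.46 for ChT, -0.31 for ChAT and 0.59 for Ace. None of the 4 overlapped between the ages (exact permutation p = 0.10 each, also after adjustment over the 4 comparisons). Before any scaling, 40.8% of all probe sets did not overlap, and the share after scaling was not computed. The marker mean itself did not overlap between the ages either, and was lower on the aged arrays. Subtracting it could only widen the rise of Ace, so the scaled value of Ace is no separate test. This scaling was chosen after the values were seen. The markers did not all differ in the same direction. The part of neuronal content in the differences of the 4 genes was not tested.

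**Figure D3:**
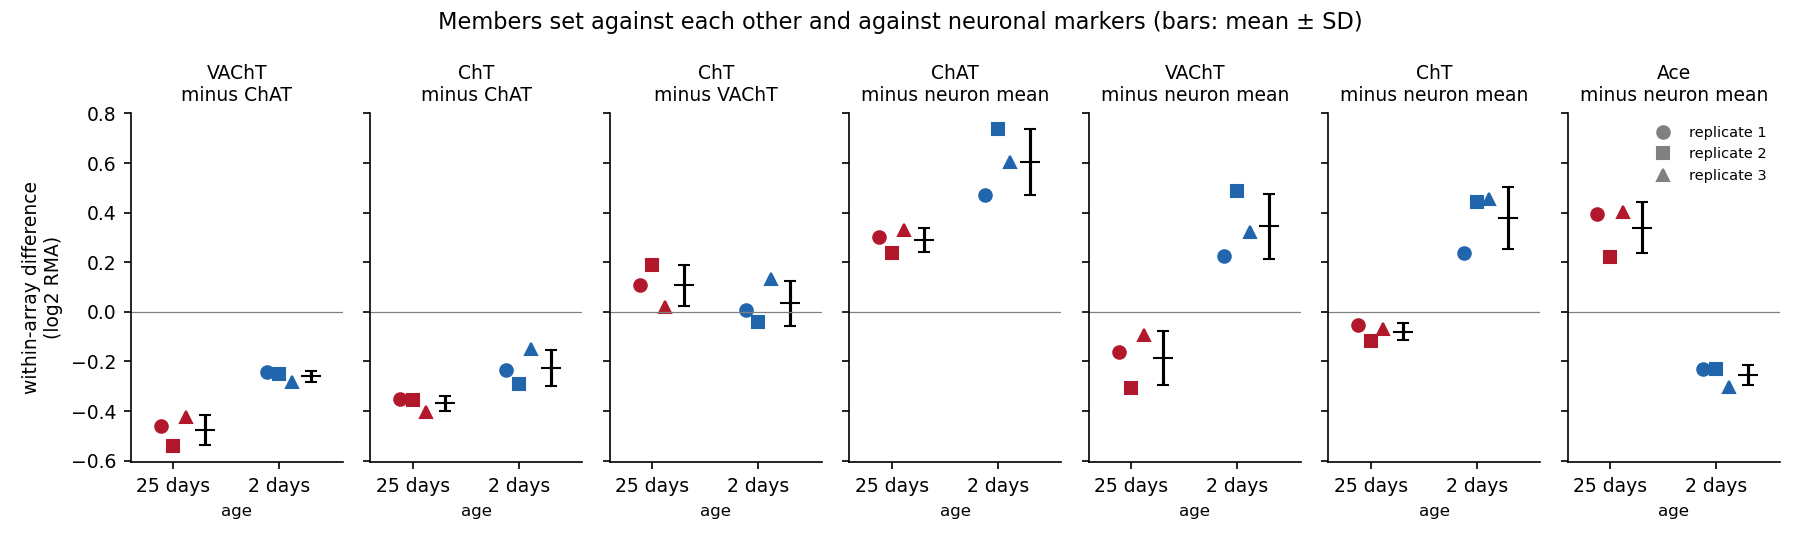
Within-array differences on the log2 scale (y axis) at 25 days (red) and 2 days (blue), with the mean ± SD of 3 arrays as black bars; the 3 panels on the left set ChAT, VAChT and ChT against each other and the 4 on the right set each gene against the mean of 8 neuronal markers. The ages overlap for ChT minus VAChT and for none of the other panels.

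Marker genes of other cell types also differed between the ages, to be read against the 10.7% of all genes called lower and 15.8% called higher. The glial list had 0 of 6 measured markers higher and 3 lower (limma; 0 and 3 at an unadjusted p under 0.05), with marker means of 9.82 to 9.92 on the aged arrays, against 10.07 to 10.16 on the young arrays. The muscle list had 3 of 3 lower (7.85 to 8.57 aged, against 9.58 to 9.78 young), and the photoreceptor list 2 of 5 lower (12.48 to 12.60 aged, against 12.74 to 12.79 young). The haemocyte list had 3 of 4 higher (7.18 to 7.40 aged, against 6.64 to 6.77 young). The fat body list had 0 of 6 called (limma; 1 lower at an unadjusted p under 0.05), and its mean was 9.25 to 9.63 on the aged arrays, against 8.98 to 11.07 on the young arrays. The yolk protein genes on that list, which are known to be expressed mainly in females, varied more among the young than among the aged arrays. Yp1 stood at 6.05, 6.47 and 5.87 on the aged arrays, against 4.02, 7.76 and 10.17 on the young arrays, and Yp2 at 4.21, 4.45 and 4.24 on the aged arrays, against 3.95, 5.24 and 8.54 on the young arrays. Yp3 ranged from 8.73 to 9.04 on the aged arrays, against 8.25 to 9.85 on the young arrays. Among the young arrays the SDs of ChAT, VAChT, ChT and Ace were 0.07 to 0.09. These SDs do not measure any difference in sex between the ages. For the fly control messages actin, eIF-4a and GAPDH, the 3' minus the 5' signal averaged 1.26 to 1.32 on the aged arrays, against 1.74 to 1.95 on the young arrays. In 8 control sets for Bacillus transcripts it averaged 1.11 to 1.15 on the aged arrays, against 1.59 to 1.83 on the young arrays (exact permutation p = 0.10 for both). In 8 hybridisation controls, which are added after labelling, it averaged 0.22 to 0.51 on the aged arrays, against 0.22 to 0.25 on the young arrays (exact permutation p = 0.30). The part of these cell types, of the sex of the flies and of this labelling measure in the differences of the 4 genes was not tested.

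The receptors for acetylcholine split in direction. Of the 9 nicotinic receptor subunits with a probe set of their own, out of 10 listed, 5 were lower in aged heads, 1 was higher and 3 did not pass, with a median difference of -0.37, where 10.7% of all genes were called lower and 15.8% higher. These subunits form the ligand-gated cation channels that carry fast cholinergic transmission. nAChRalpha7 fell most, with levels of 6.59, 6.65 and 6.43 on the aged arrays, against 7.34, 7.56 and 7.62 on the young arrays (-0.96 ± 0.10, limma adjusted p = 0.00109). nAChRbeta3 rose, with levels of 7.72, 7.60 and 8.02 on the aged arrays, against 6.79, 6.87 and 6.87 on the young arrays (0.94 ± 0.11, adjusted p = 0.00177). Neither subunit overlapped between the ages, as at 40.8% of all probe sets.

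The other subunits that fell were nAChRbeta2 (-0.61 ± 0.10), nAChRalpha3 (-0.59 ± 0.07), nAChRalpha2 (-0.46 ± 0.08) and nAChRbeta1 (-0.37 ± 0.09, adjusted p = 0.0249). The second probe set of nAChRbeta1 lay at -0.83 ± 0.08 and also passed. The call of the brighter nAChRbeta1 probe set was lost without young replicate 2, young replicate 3, aged replicate 1 or aged replicate 3 (adjusted p = 0.0552 to 0.0801). Those of nAChRalpha2 (0.0533) and nAChRbeta1 (0.134) were lost without the pair of young replicate 2 and aged replicate 3. nAChRalpha1, nAChRalpha4 and nAChRalpha5 differed by 0.04, 0.06 and -0.08 and did not pass. nAChRalpha1 was dim, with a mean of 4.28 in aged heads and 4.24 in young heads, below the median of all probe sets. Its second probe set, also dim, lay at 0.48 ± 0.19 (limma adjusted p = 0.122), and that of nAChRalpha4 at -0.01 ± 0.10, and neither passed.

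Of the muscarinic receptors, which signal through G proteins, 2 of 3 listed had a probe set of their own. mAChR-B fell by 0.46 ± 0.09 (limma adjusted p = 0.0136), a call lost without aged replicate 1 (adjusted p = 0.0504) or aged replicate 3 (0.0503) and without the pair of young replicate 2 and aged replicate 3 (0.0829). mAChR-C, at 2.99 in aged heads and 3.02 in young heads, was near the bottom of the scale. Of the listed Ly6 proteins, bou rose by 0.34 ± 0.06 (adjusted p = 0.00871), a call lost without that pair of arrays (0.0608). Any part of bou at these receptors was not tested. The probe sets of qvr, also called sleepless, which encodes a Ly6 protein that acts on potassium channels and nicotinic receptors, disagreed. The brightest differed by -0.18 ± 0.08 and did not pass, and the others were higher by 1.58 ± 0.38 and 1.31 ± 0.33 and passed (adjusted p = 0.0241 and 0.0298).

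Choline also enters membrane lipid as phosphatidylcholine, and a list of this metabolism holds enzymes of the parallel ethanolamine route too. Of 9 of its genes measured, 3 rose, 0 fell and 6 did not pass (limma; at an unadjusted p under 0.05, 3 were higher and 1 lower), with a median difference of 0.0022. The share called, 3 of 9, was near the 26.5% of all genes called in either direction. eas, an ethanolamine kinase, had levels of 10.22, 10.23 and 10.11 on the aged arrays, against 9.63, 9.71 and 9.60 on the young arrays, and rose by 0.54 ± 0.07 (adjusted p = 0.0023). CG2201 rose by 0.37 ± 0.07 and Pcyt2 by 0.33 ± 0.07. The call of Pcyt2 was lost without aged replicate 1 (adjusted p = 0.0619) or aged replicate 3 (0.0523), and both calls were lost without the pair of young replicate 2 and aged replicate 3 (0.0912 for Pcyt2 and 0.0733 for CG2201). On the acetyl side, AcCoAS, which makes acetyl coenzyme A from acetate, differed by 0.25 ± 0.08 (adjusted p = 0.0528) and ATPCL, ATP citrate lyase, was dim at both ages, so 0 of 2 passed (limma; 1 higher at an unadjusted p under 0.05).

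Of 3 transcription factors listed for cholinergic neurons, acj6, a POU factor that acts on the cholinergic locus, fell by 0.66 ± 0.10 (limma adjusted p = 0.0046), with levels of 4.61, 4.83 and 4.55 on the aged arrays, against 5.26, 5.25 and 5.48 on the young arrays. The median over all probe sets is 4.92, near these levels, so the difference may be compressed. pdm3 differed by -0.12 ± 0.06 and unc-4, which was dim, by 0.14 ± 0.11, and neither passed.

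Among 12 measured genes that synthesise or transport other transmitters, 0 were called higher, 7 lower and 5 did not pass (limma; 1 higher and 9 lower at an unadjusted p under 0.05), with a median difference of -0.36, where 15.8% of all genes were called higher and 10.7% lower. Over the 14 alternatives 5 to 9 were lower and 0 or 1 higher, with 5 lower and 1 higher when the replicate number was a block. The calls of Hdc, histidine decarboxylase (-0.30), and SerT, the serotonin transporter gene (-0.41), were lost with that block (adjusted p = 0.0780 and 0.0815) and in 7 of the 14 alternatives each. The lowest were ple, tyrosine hydroxylase (-0.67 ± 0.10), the plasma membrane dopamine transporter gene DAT (-0.59 ± 0.08) and Gad1, which makes GABA (-0.59 ± 0.07). The vesicular transporters for GABA (VGAT, -0.46 ± 0.09) and monoamines (Vmat, -0.43 ± 0.09) fell by less than VAChT did on these arrays, but the difference between them and VAChT was not tested. The other 3 probe sets of Vmat stood at -0.28, which passed, and at 0.05 and 0.43, which did not. The vesicular glutamate transporter gene VGlut stood at 7.45, 7.15 and 6.89 on the aged arrays, against 6.82, 5.60 and 6.11 on the young arrays (0.98 ± 0.29, adjusted p = 0.0511), with the young arrays spread widely. It passed, upwards, when the replicate number was a block (adjusted p = 0.0207), with array weights (0.0107), at or above the median level alone (0.0290), with 1 probe set per gene (0.0450) and without young replicate 1 (0.00925), and in the other 9 alternatives it did not pass (0.0581 to 0.153). The second probe set of VGlut, which was dim, stood at 0.07 ± 0.13 and did not pass.

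**Figure D4:**
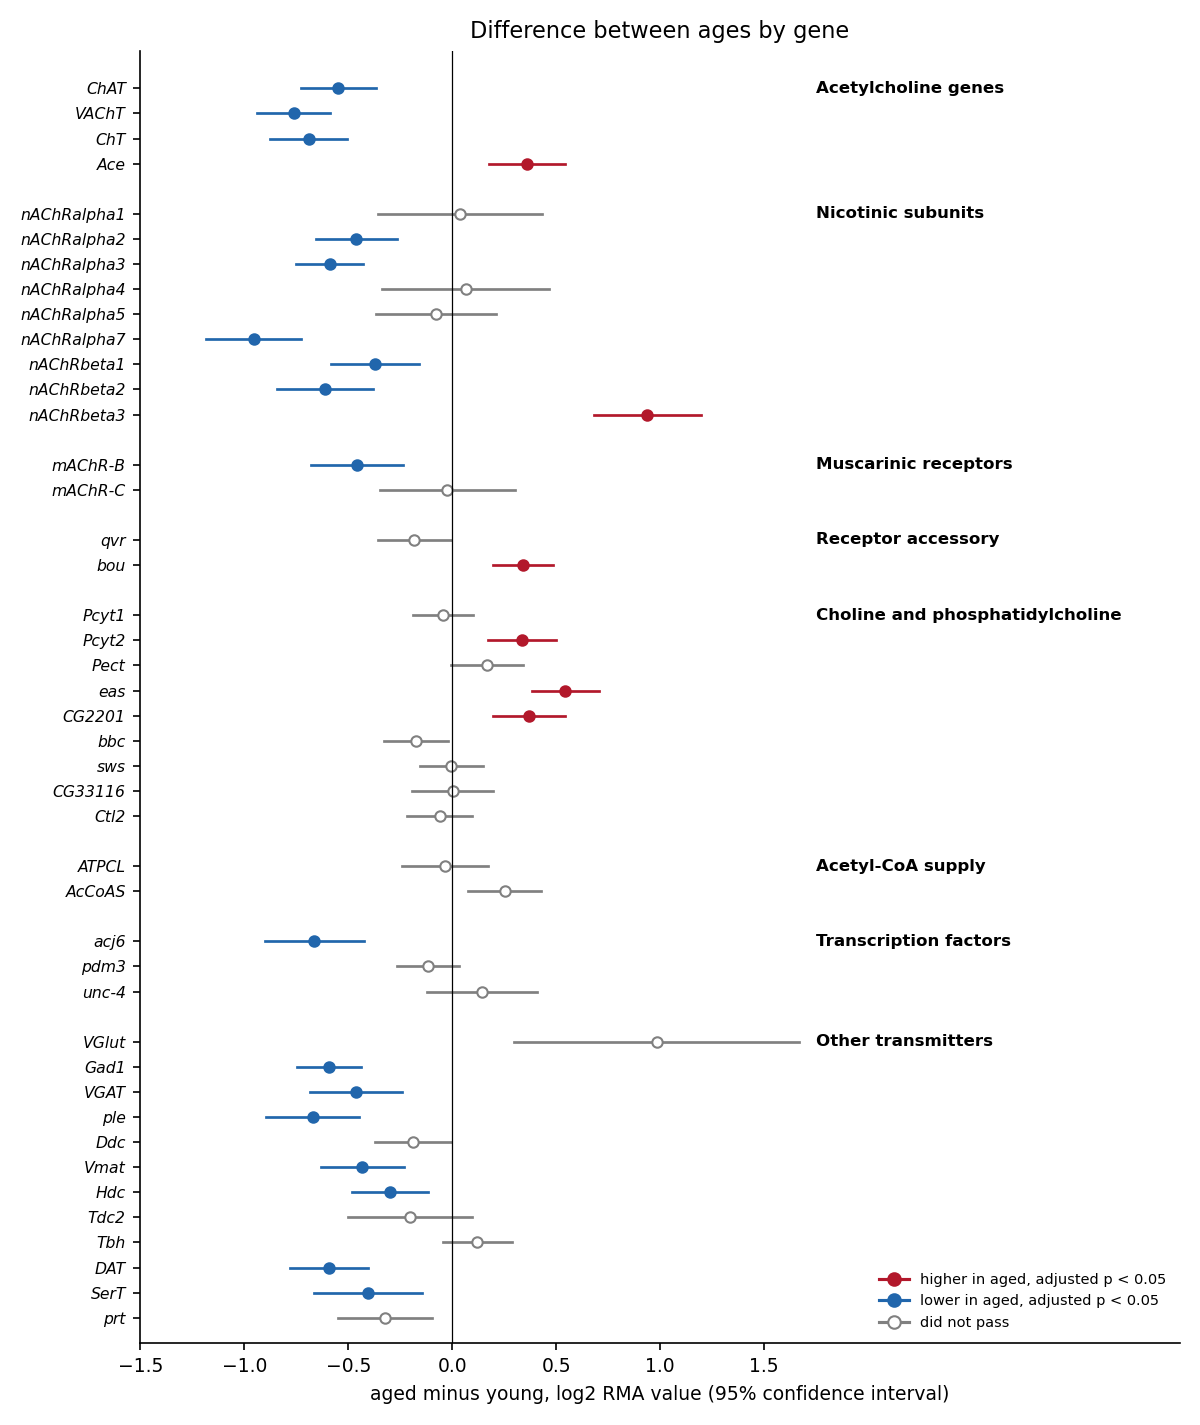
Signed difference between aged and young heads (x axis, log2 RMA) with its 95% confidence interval for the 4 acetylcholine genes and for each measured gene of the pathway lists, 1 probe set per gene; filled red is higher and filled blue lower at an adjusted p under 0.05, open grey did not pass. Among the genes that passed, ChAT, VAChT and ChT lie left of 0, as do 5 nicotinic subunits, mAChR-B, acj6 and 7 genes of other transmitters. Ace lies right of 0, as do nAChRbeta3, bou and 3 choline and phosphatidylcholine genes.

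All 4 genes lie on chromosome arm 3R, and 3 of them lie close together. In the RefSeq table for the assembly Release 6 plus ISO1 MT, used here for gene order alone because the array's build is not given in the sources used here, VAChT shares its start with ChAT and lies within it. ChT lies on the same arm with 3 protein-coding genes, Muc91C, CG14300 and CG34282, between it and ChAT. Of the 14 other protein-coding genes from the fifth before ChT to the fifth after VAChT by start, 13 were measured, and 0 passed (limma, adjusted p of 0.0616 and above; 2 at an unadjusted p under 0.05). Their differences ran from -0.34 (CG7714) to 0.16 (dind). CG34283, CG7714 and CG7715, which lie inside ChAT, were dim at both ages. In all, 8 of the 13 measured genes had a mean below the median level of 4.92, among them all 3 between ChT and ChAT, so a difference there could be compressed. Ace lies elsewhere on the arm, and of the 5 protein-coding genes on each side of it, all 10 measured, 1 was called higher and 2 lower, where 26.5% of all genes were called. These were TBC1D5 (0.73 ± 0.10, adjusted p = 0.00368), CG8483 (-0.73 ± 0.12, adjusted p = 0.00587) and CG8630 (-1.03 ± 0.08, adjusted p = 3.41e-04). Both sets were chosen after the values of the 4 genes were known.

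**Figure D5:**
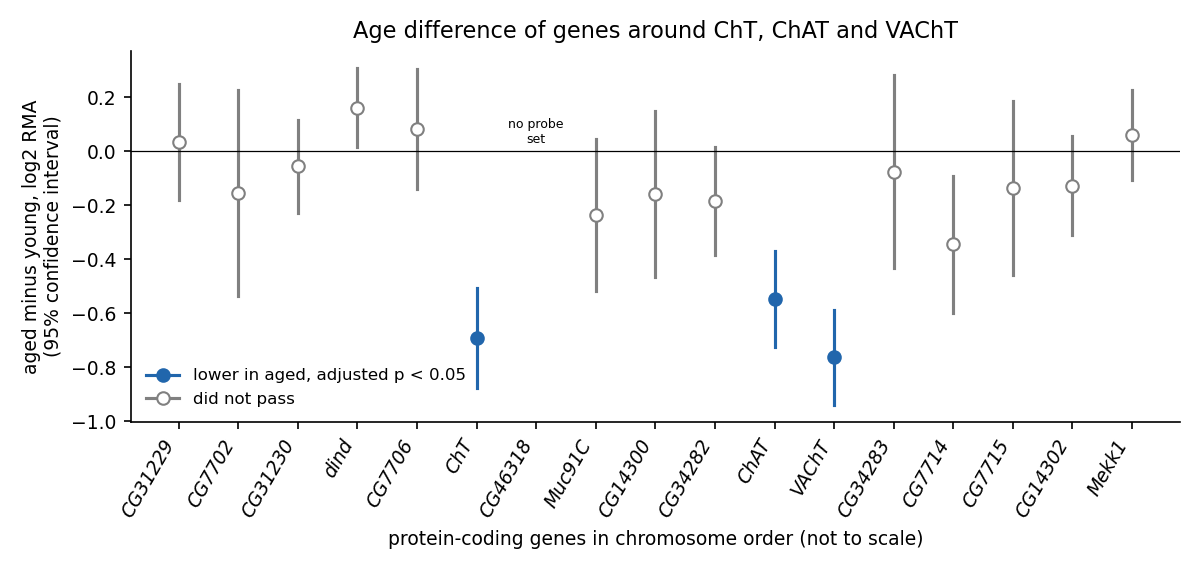
Signed difference between aged and young heads (y axis, log2 RMA) with its 95% confidence interval for protein-coding genes around ChT, ChAT and VAChT in chromosome order (x axis, not to scale). ChT, ChAT and VAChT are the genes drawn in blue, which passed, and the 13 other measured genes, from -0.34 to 0.16, did not.

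The profiles of the 3 genes that fell ran closely together over the 6 arrays. Pearson's r was 0.99 between ChAT and VAChT, 0.99 between ChAT and ChT and 0.98 between VAChT and ChT, and -0.91 to -0.89 between each of them and Ace. These values describe 6 arrays in 2 ages and mostly reflect the step between the ages, which these genes share with every probe set that differs by age. Among the probe sets at or above the median level with 1 gene symbol, those most like ChAT were Calx, a sodium-calcium exchanger (r = 0.998, difference -0.33 ± 0.06), CG42673 (r = 0.998) and Pgant5, a glycosyltransferase of protein O-glycosylation (r = 0.997). Most like VAChT were CG5404 (r = 0.9996), CG6329 (r = 0.998, difference -0.96 ± 0.08) and the glypican gene dlp (r = 0.998, difference -0.70 ± 0.07). Most like ChT were CG8916 (r = 0.9996), rogdi (r = 0.9995) and CG31064 (r = 0.999). Most like Ace were CG14435 (r = 0.999), p47 (r = 0.998) and Jwa (r = 0.997), and Jwa itself, at 0.21 ± 0.07, did not pass the test of age (limma adjusted p = 0.0588).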

How the data were processed

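Total RNA of heads was extracted with Trizol from frozen flies and labelled with biotin, per the labels' protocols. The deposited values are RMA expression levels on the log2 scale made by the authors. The submitters' processing notes name RMA and limma, with no settings or versions. RMA normalizes arrays to a common distribution, so a change in total message per head is not visible. The number of arrays limits the precision, and array medians lay between 4.85 and 4.93.

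All 18769 non-control probe sets (183 controls left out) were tested with limma (version 3.58.1, run in R version 4.3.3) by lmFit and eBayes on 6 arrays with no covariates, with Benjamini-Hochberg adjustment over all of them. Gene names came from the array's probe table. List genes were read through their brightest probe set (11982 genes), and listed symbols without a probe set of their own were not analysed here. Named genes were the 4 members, list genes that passed (all where 5 or fewer passed in a direction, otherwise the 3 largest, and with none the smallest p) and the 3 genes with the most similar profile per member. VGAT, Vmat, VGlut, Hdc, SerT and the list genes that did not pass, other than AcCoAS, the neuronal markers and the neighbouring genes were named after their values were seen. Single within-array values were tested with exact two-sided permutation over arrays. The fit was tested on simulated data. The members and lists were chosen with earlier results of these data known.

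Same-numbered arrays of the ages did not deviate together (correlations of 0.10, -0.02 and -0.06 over probe sets), so the numbers were not taken to pair arrays. No sequence is shown, since no sequence table was used here.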

Additional observations from a re-analysis of the deposited data

How the results depend on the processing

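ChAT, VAChT and ChT passed under all 14 alternatives, with largest adjusted p-values of 0.0236, 0.00870 and 0.0131 (limma), and differences from -0.59 to -0.46, from -0.81 to -0.69 and from -0.73 to -0.62. Ace passed in 11 of 14, with differences of 0.31 to 0.41 (0.31 to 0.40 with 1 array left out), and was lost without aged replicate 1 (adjusted p = 0.0672), without young replicate 3 (0.0562) and, at 0.39, without the pair of young replicate 2 and aged replicate 3 (0.0612). The alternatives were a robust prior with limma-trend, testing only probe sets at or above the median level, median centring, quantile normalization, array weights, a single probe set for each gene, a block for replicate number, each array left out, and that last pair left out, which was added after the data were seen. With the replicate number as a block, 3343 probe sets were called, and the 4 genes kept their calls (adjusted p = 0.0119 for ChAT, 0.00634 for VAChT, 0.00869 for ChT and 0.0252 for Ace).

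Of all probe sets 4071 were called, 2302 to 4027 with 1 array left out (1377 to 2371 higher, 925 to 1659 lower), and 2492 with the pair left out (1462 higher, 1030 lower). Fewer arrays entered those fits. With the pair left out, 3 nicotinic subunits were called lower and 1 higher, and with 1 array left out 4 to 5 were lower and 1 higher. With 1 array left out, the within-array differences ranged from -0.18 to -0.11 for ChT minus ChAT, 0.03 to 0.12 for ChT minus VAChT, -0.99 to -0.85 for ChAT minus Ace, -1.19 to -1.06 for VAChT minus Ace and -1.13 to -0.99 for ChT minus Ace. The 3' minus 5' differences ranged from -0.65 to -0.55 for the fly messages and from -0.64 to -0.51 for the Bacillus transcripts. Detection calls were not part of the values used, so dim probe sets were judged by the median level alone.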
